A study of Arabidopsis thaliana with 12 samples.

Results

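TPP2 (AT4G20850) and AT3G27110 are a pair of Arabidopsis thaliana peptidase genes, each read by 1 probe among the 3439 of the array, and 2 of the 691 genes that have a probe of their own. Both were followed across all 12 samples. No probe that lists several genes names either of them. They were chosen because both were among the single-gene features with the lowest differences in the contrast of mutant against wild type in these same samples, at positions 9 (TPP2) and 7 (AT3G27110) from the lowest of 530. Every value of these genes in that contrast is therefore a description and carries no test. The 12 samples are 6 titled prors2_dark, from the mutant that the labels describe as devoid of prolyl tRNA synthetase, and 6 titled WT2_dark, the wild type. All are total RNA of ecotype Columbia 0 from plants left in the dark overnight. The label for the source of the RNA says WT for all 12, so the genotype rests on the titles. The tissue, the age of the plants, the nature of the mutant allele and the meaning of the 2 in WT2 are not stated in those labels.

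TPP2 encodes tripeptidyl peptidase II, a very large serine peptidase of the subtilisin family that removes tripeptides from the amino end of peptides, including those released by the proteasome. AT3G27110 encodes a zinc metallopeptidase of the M48 family, known as PGM48, which has been located in plastoglobules, the lipid droplets of chloroplasts, and has been linked to leaf senescence. Prolyl-tRNA synthetase supplies the proline-charged tRNA on which translation depends, and peptidases stand at the other end of the life of a protein, where peptides are broken down to amino acids. RefSeq lists 1 transcript for TPP2 and 5 for AT3G27110 in assembly TAIR10.1, and which of these the AT3G27110 probe reads was not examined.

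Array signal as a whole differed between the groups, and both genes have to be read against it. The median deposited intensity of a sample, in arbitrary linear units, lay between 0.240 and 0.403 in prors2_dark and between 0.0620 and 0.0852 in WT2_dark. Between 431 and 609 probes were listed at 0 in prors2_dark samples, and between 746 and 926 in WT2_dark samples. The highest value was just under 100 in every sample, with 2 or 3 probes over 99 in prors2_dark samples and 5 or 6 in WT2_dark samples. How this upper end was set is not stated, so it is not known whether deposited intensities of different samples share a scale, and statements on deposited values here hold only as far as they do. Samples 3 and 4 were the dimmest of either group, with medians of 0.240 and 0.244 in prors2_dark and of 0.0620 and 0.0646 in WT2_dark. Green-tissue markers were read by 3 of 11 listed genes, and their summed intensity lay between 19.1 and 40.8 in prors2_dark and between 47.0 and 56.5 in WT2_dark. None of the 5 root and 4 flower markers had a probe of its own. The part of these differences in the results below was not tested.

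TPP2 gave a faint signal in both groups, and the deposited intensities of the groups overlapped. Its intensity in prors2_dark had a lowest value of 0, a median of 0.0537 and a highest of 0.113. In WT2_dark the lowest was 0, the median 0.0543 and the highest 0.0825. The mean was 0.0494 ± 0.0440 in prors2_dark and 0.0464 ± 0.0337 in WT2_dark (SD, n = 6 each), so the means differed by less than the spread between samples. In RNA of whole samples, fewer cells of a type and less RNA per cell cannot be told apart. Zeros fell in both groups, in 2 of 6 prors2_dark samples, numbers 3 and 4, and in 1 of 6 WT2_dark samples, number 5.

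Samples with consecutive numbers resembled each other in prors2_dark, with correlations of 0.54 to 0.84 between their deviations from the group mean over 1940 features, against -0.030 to 0.18 in WT2_dark. The sets also showed in WT2_dark, in the count of probes listed at 0. It was 791 in both samples 1 and 2, 926 and 916 in 3 and 4, and 755 and 746 in 5 and 6. In prors2_dark TPP2 read 0.0762 and 0.113 in samples 1 and 2, 0 in both 3 and 4, and 0.0487 and 0.0587 in 5 and 6. In WT2_dark it read 0.0148 and 0.0825 in samples 1 and 2, 0.0402 and 0.0684 in 3 and 4, and 0 and 0.0728 in 5 and 6. In samples 1 and 2 the higher TPP2 reading was 1.48 times the lower in prors2_dark, against 5.58 times in WT2_dark. Both zeros of the mutant thus came from the dimmest prors2_dark samples. The zero of the wild type came from sample 5, with a median of 0.0837, near the highest of its group (0.0852). The gene was detected in sample 6 next to it.

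AT3G27110 was above 0 in all 12 samples. Its intensity in prors2_dark had a lowest value of 0.108, a median of 0.130 and a highest of 0.207. In WT2_dark the lowest was 0.115, the median 0.185 and the highest 0.201. The mean was 0.143 ± 0.0395 in prors2_dark and 0.174 ± 0.0328 in WT2_dark (SD, n = 6 each), a gap smaller than 1 SD of either group. The highest reading of AT3G27110 came from a mutant sample, prors2_dark number 6, and 2 of the 6 mutant samples lay below every wild-type sample.

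Within the mutant, AT3G27110 differed between the sets of consecutive numbers. It read 0.118 and 0.111 in prors2_dark samples 1 and 2, 0.108 and 0.141 in 3 and 4, and 0.171 and 0.207 in 5 and 6. In WT2_dark it read 0.179 and 0.115 in samples 1 and 2, 0.201 and 0.161 in 3 and 4, and 0.200 and 0.190 in 5 and 6. Samples 5 and 6 of the mutant were thus level with the wild type as deposited, and samples 1 to 4 were below the wild-type median. Nothing in the labels says whether consecutive numbers are separate plants or repeat readings, so the spread given here may be technical.

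**Figure D1:**
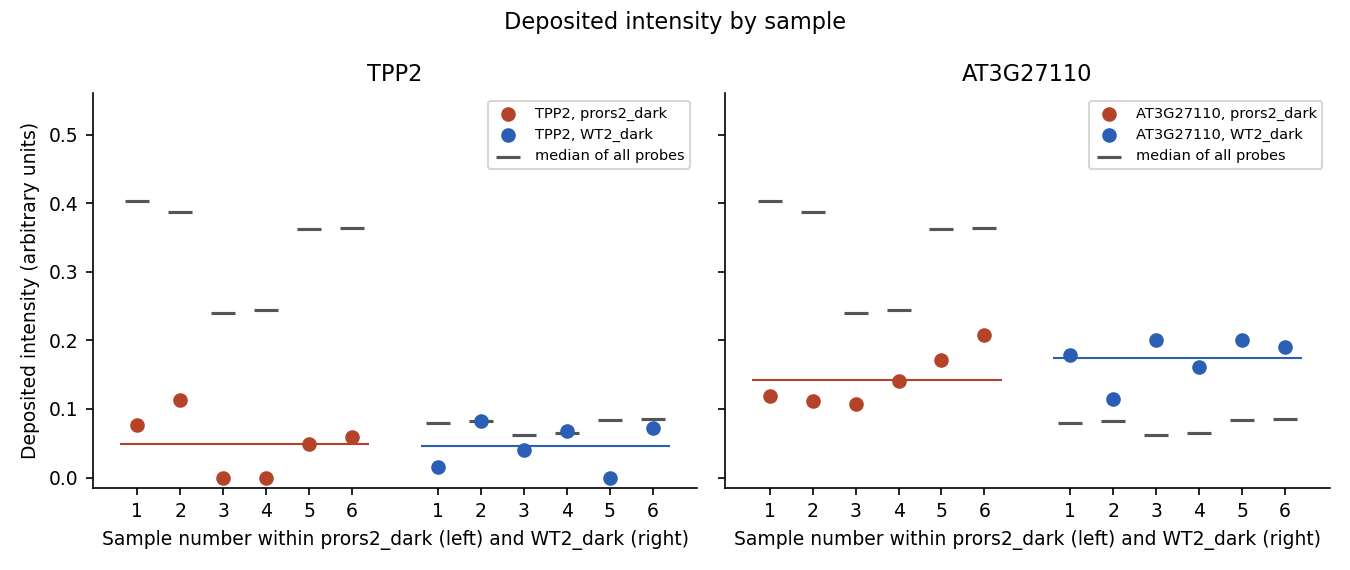
Deposited intensity (arbitrary units, linear axis) of TPP2 and AT3G27110 in each of the 6 prors2_dark and 6 WT2_dark samples as points, with the group mean as a line and the median of all 3439 probes of each sample as a short grey bar. TPP2 points of the groups overlap around means of 0.0494 and 0.0464, and AT3G27110 lies below the grey bar in all 6 prors2_dark samples and above it in all 6 WT2_dark samples.

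The groups differed for AT3G27110 in its place within each sample. That place is close to the scale on which the gene was chosen, so its values here are largely set by the choice. AT3G27110 was below the median probe in all 6 prors2_dark samples, at 0.287 to 0.580 times that median, and above it in all 6 WT2_dark samples, at 1.39 to 3.24 times. The share of all features that cross the median in this way was not counted. As a percentile among the 3439 probes of a sample, AT3G27110 stood between 19.6 and 35.0 in prors2_dark, with a median of 29.2, and between 57.9 and 73.1 in WT2_dark, with a median of 67.8. Among the probes above 0 alone it stood between 6.54 and 22.6 in prors2_dark and between 45.3 and 63.1 in WT2_dark. The groups did not overlap on either scale. Over all probes, this was the case with the mutant lower for 15.9% of the tested features. The lowest percentiles were those of prors2_dark samples 1 and 2, both at 19.6, which also had the highest array medians.

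TPP2 showed a less clear order. Where it was above 0, its percentile lay between 15.1 and 19.6 in 4 prors2_dark samples and between 27.9 and 51.1 in 5 WT2_dark samples. Wild-type samples hold more zeros, which raises a percentile over all probes. Among the probes above 0 alone, TPP2 stood between 2.59 and 6.60 in prors2_dark and between 6.36 and 34.9 in WT2_dark, so the groups overlapped. The probes listed at 0 made up 17.6% and 17.7% of prors2_dark samples 3 and 4 and 22.0% of WT2_dark sample 5, which are the highest percentiles that TPP2 can have there. WT2_dark sample 5 could therefore be as low as any mutant sample. TPP2 was above its sample median in 0 of 6 prors2_dark samples and in 1 of 6 WT2_dark samples, number 4.

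**Figure D2:**
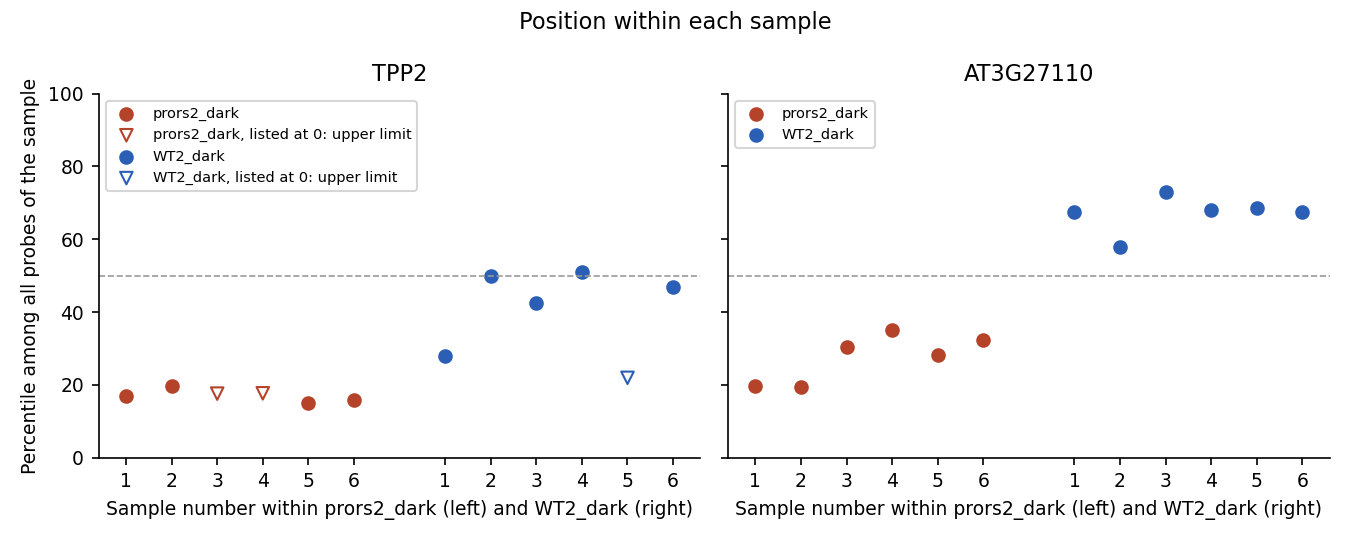
Percentile of TPP2 and AT3G27110 among the 3439 probes of each sample, by sample number within prors2_dark and WT2_dark; open triangles mark samples in which TPP2 was listed at 0 and stand at the highest percentile it can have, and the dashed line is the median probe. AT3G27110 lies at 35.0 or less in prors2_dark and at 57.9 or more in WT2_dark, and TPP2 at 19.6 or less in prors2_dark.

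Normalized values follow the rank among the probes above 0, since quantile normalization gives every sample the same distribution of log2 intensity over those probes. On that scale TPP2 had a mean of -5.52 ± 0.49 in prors2_dark (SD, n = 4) and -3.38 ± 0.91 in WT2_dark (SD, n = 5), with the samples at 0 left out. The difference in normalized log2 level, prors2_dark minus WT2_dark, was -2.14 with a standard error of 0.46. This error treats all samples as independent. With consecutive numbers as a random block the TPP2 difference was -2.2 with a standard error of 0.92, and with them averaged -2.22 with 0.44. The averaged fit rests on fewer TPP2 values. Samples 3 and 4 of prors2_dark gave no average, both being at 0. The WT2_dark average of samples 5 and 6 rests on sample 6 alone. Of the 4 mutant values 3 lay below every wild-type value, and the exception was prors2_dark sample 2, at -4.89, beside WT2_dark sample 1, at -4.94. AT3G27110 had a mean of -4.03 ± 0.68 in prors2_dark and -1.83 ± 0.27 in WT2_dark (SD, n = 6 each), and a difference of -2.21 with a standard error of 0.29. For AT3G27110 the standard error was 0.37 with consecutive numbers as a random block and 0.42 with them averaged. Its groups did not overlap, with a highest prors2_dark value of -3.40 against a lowest WT2_dark value of -2.33. Such a gap with the mutant lower was found in 13.2% of the tested features. Over all 2684 features tested, the median difference was 0.09.

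These differences stand among many of both signs. With limma and a Benjamini-Hochberg adjusted p under 0.05, 671 of the 2684 features were higher in prors2_dark (25%) and 554 lower (20.6%), and among the 530 single-gene features 167 were higher (31.5%) and 90 lower (17%). With consecutive numbers as a random block 358 features were higher and 313 lower, and with them averaged 337 were higher and 211 lower of 2761. As deposited, with no normalization, the split over all features was 1869 higher and 144 lower, and median centring gave 653 higher and 905 lower. By mean normalized value over both groups, TPP2 was among the dimmest features, with 5.18% of the tested features dimmer. AT3G27110 was somewhat brighter, with 29.7% dimmer. This mean, and the bins made from it, include the low mutant values that chose both genes. In WT2_dark alone, the median percentile among probes above 0 was 32.0 for TPP2, over 5 samples, and 58.1 for AT3G27110. With the tested features cut by brightness into 4 bins of 671, 17% were called lower and 14.3% higher in the dimmest bin, which holds TPP2, and in the next bin, which holds AT3G27110, 18.9% were called lower and 28.9% higher. In the order of differences AT3G27110 (-2.21) stood between THIC (-2.30) and AT1G67820 (-2.20), and TPP2 (-2.14) between AT1G67820 and AT1G21350 (-1.99).

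The size of the difference depended on the scale for both genes, and for TPP2 the direction did too. As deposited, the log2 difference of TPP2 was 0.57 with a standard error of 0.52, while the median over all features was 1.49, so that TPP2 lay at -0.93 relative to that median. The deposited log2 difference of AT3G27110 was -0.30 with a standard error of 0.21, which is -1.80 relative to the same median. With median centring the differences were -1.21 (standard error 0.50) for TPP2 and -1.89 (standard error 0.23) for AT3G27110. With zeros kept and a pseudocount of 0.05 they were -1.25 (standard error 0.33) for TPP2 and -1.73 (standard error 0.19) for AT3G27110. The lower place of both genes within the mutant samples thus went with deposited means that differed by less than the spread between samples, on arrays where most features read higher in the mutant.

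Within sets of consecutive numbers, the normalized difference of AT3G27110 was -2.83 in samples 1 and 2, -1.97 in 3 and 4, and -1.82 in 5 and 6, with standard errors of 0.24, 0.22 and 0.17. For TPP2 it was -1.36 with a standard error of 0.85 in samples 1 and 2 and -2.93 with a standard error of 0.31 in 5 and 6. Samples 3 and 4 gave none for TPP2, since both mutant readings were 0. Every one of these differences is below 0, which the choice of both genes on these same samples favours, so the shared sign is a description. TPP2 in samples 5 and 6 rests on 1 wild-type reading above 0. Without WT2_dark sample 1, the faintest reading above 0, the TPP2 difference was -2.50.

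**Figure D3:**
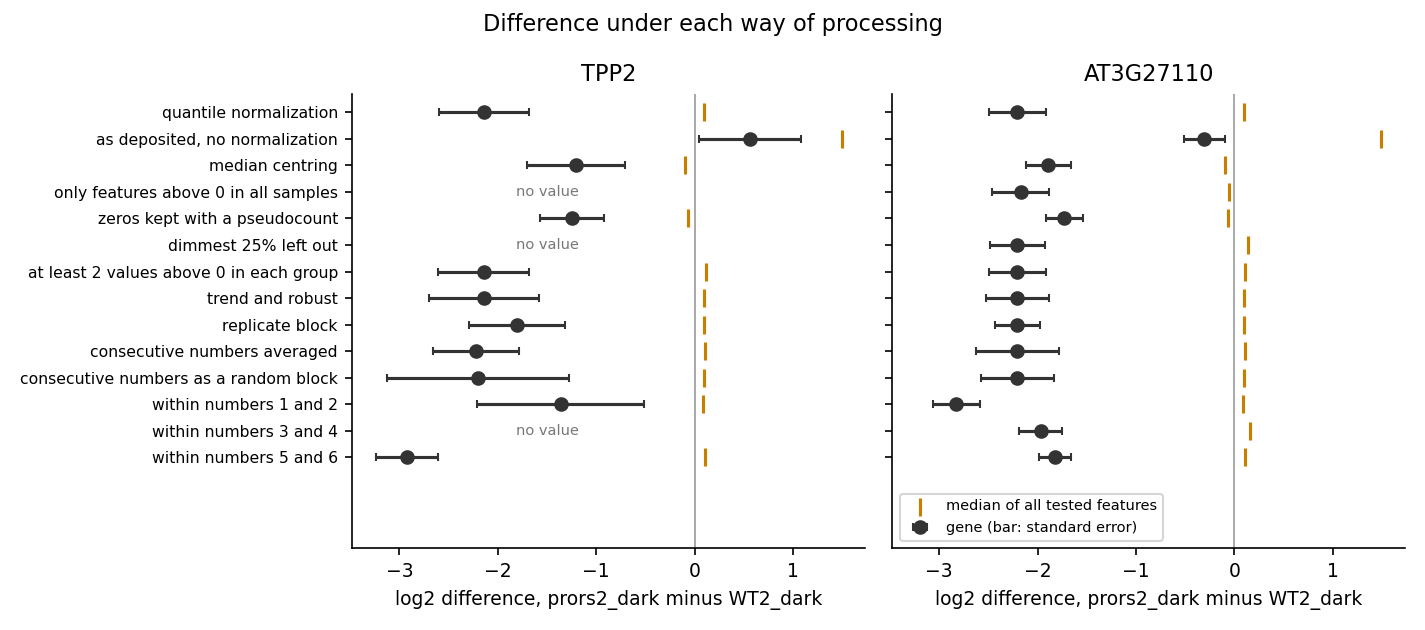
Log2 difference (prors2_dark minus WT2_dark) of TPP2 and AT3G27110 under each way of processing, as points with standard errors, beside the median difference of all features tested under that processing as an orange tick. AT3G27110 lies below 0 throughout, and TPP2 lies above 0 only as deposited, at 0.57, where the median of all features is 1.49.

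Few other genes listed with peptidases could be tested. Of 117 further loci listed with peptidases or found by a search of gene names, 5 had a probe of their own and 3 could be tested. Of these 1 fell, 0 rose and 2 did not pass, with a median difference of -0.11 against 0.09 over all features and 0.31 over single-gene features. Over all features 20.6% were called lower and 25% higher, and over single-gene features 17% lower and 31.5% higher. With 3 genes, 1 of 3 lower cannot be told apart from either background. The 1 that fell, AT1G68660 (CLPS1), selects substrates for the Clp protease of the plastid and is no peptidase itself. It fell by 1.38 ± 0.32 (standard error) on the normalized log2 scale (limma, adjusted p = 0.00377), but had a difference of 0.39 as deposited (limma, adjusted p = 0.395). Its deposited intensity lay between 0.0611 and 0.294 in prors2_dark samples, with a median of 0.233, and between 0.0875 and 0.214 in WT2_dark samples, with a median of 0.121. The groups overlapped, the mutant median was the higher one, and the call was lost with consecutive numbers averaged (limma, adjusted p = 0.0533) or taken as a random block (limma, adjusted p = 0.0697).

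AT3G02450, an FtsH-like protein, had a difference of -0.11, or 0.79 with median centring (limma, adjusted p = 0.881 and 0.179), and AT5G46390, a homologue of the peptidase that trims the D1 protein of photosystem II, of 0.14 (limma, adjusted p = 0.810). Both were brighter in the mutant as deposited, without overlap, as were 52.5% of the tested features. AT3G02450 lay between 0.0542 and 0.189 in prors2_dark and between 0 and 0.0475 in WT2_dark. AT5G46390 lay between 0.157 and 0.531 in prors2_dark and between 0.0172 and 0.134 in WT2_dark. Without normalization both passed as higher, AT3G02450 by 2.39 (limma, adjusted p = 0.00116) and AT5G46390 by 1.94 (limma, adjusted p = 0.00372), where the median of all features was 1.49.

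SPPA, a serine peptidase of thylakoid membranes, was listed at 0 in all 6 prors2_dark samples and in 5 of 6 WT2_dark samples, the other being at 0.0340. AT3G61540, listed among peptide-trimming enzymes, was at 0 in all 6 prors2_dark samples and in 5 of 6 WT2_dark samples. RPN11 (AT5G23540), the metallopeptidase that removes ubiquitin chains in the lid of the proteasome, was the only 1 of 52 proteasome loci with a probe, and was at 0 in all 6 prors2_dark and 4 of 6 WT2_dark samples, with a highest WT2_dark value of 0.125. None of the 20 listed loci of the subtilisin family, to which TPP2 belongs, and none of 16 Deg proteases, 12 senescence genes and 9 dark-response genes had a probe of its own in the table used here.

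Plastoglobule genes, which share the reported location of PGM48, were few. Of 21 loci 4 had a probe and 3 were tested: 1 rose, 1 fell and 1 did not pass, with a median difference of 0.86. Over all features 25% were higher and 20.6% lower, and over single-gene features 31.5% higher and 17% lower. With 3 genes, 1 of 3 in each direction cannot be told apart from either background. AT2G35490, of the fibrillin family of structural plastoglobule proteins, fell by 1.79 ± 0.28 (standard error) on the normalized log2 scale (limma, adjusted p = 3.3e-04), but had a difference of 0.13 as deposited (limma, adjusted p = 0.761). Its deposited intensity had a median of 0.127 in prors2_dark and 0.124 in WT2_dark, with overlapping groups. AT3G24190, an ABC1-type kinase, rose by 2.71 ± 0.57 (standard error; limma, adjusted p = 0.00226), with deposited intensities between 0.340 and 1.32 in prors2_dark and between 0.00599 and 0.0978 in WT2_dark. The difference was also 2.71 with consecutive numbers averaged (limma, adjusted p = 0.0214) and as a random block, where the call was lost (limma, adjusted p = 0.0918). Within sets it was 4.17 in samples 1 and 2, 1.39 in 3 and 4, and 2.56 in 5 and 6 (limma, adjusted p = 0.0722, 0.0609 and 0.00994). As deposited, the groups of AT3G24190 did not overlap, with the mutant higher, as for 52.5% of the tested features.

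AT4G13200, a plastoglobule protein of unknown function, had a difference of 0.86 (limma, adjusted p = 0.0703). It passed as higher with median centring (0.96, limma, adjusted p = 0.0447), when features with any zero were left out (0.90, adjusted p = 0.0430), as deposited (2.55, adjusted p = 1.0e-04) and within samples 5 and 6 (1.48, adjusted p = 0.0194), but not with consecutive numbers averaged (adjusted p = 0.179). It had deposited intensities between 0.296 and 0.664 in prors2_dark and between 0.0224 and 0.123 in WT2_dark. Such a gap with the mutant higher was found in 52.5% of the tested features. AT2G46910, another fibrillin, had too few wild-type values for a test: it was at 0 in all 6 WT2_dark samples and in 2 of 6 prors2_dark samples, with a highest prors2_dark value of 0.849.

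**Figure D4:**
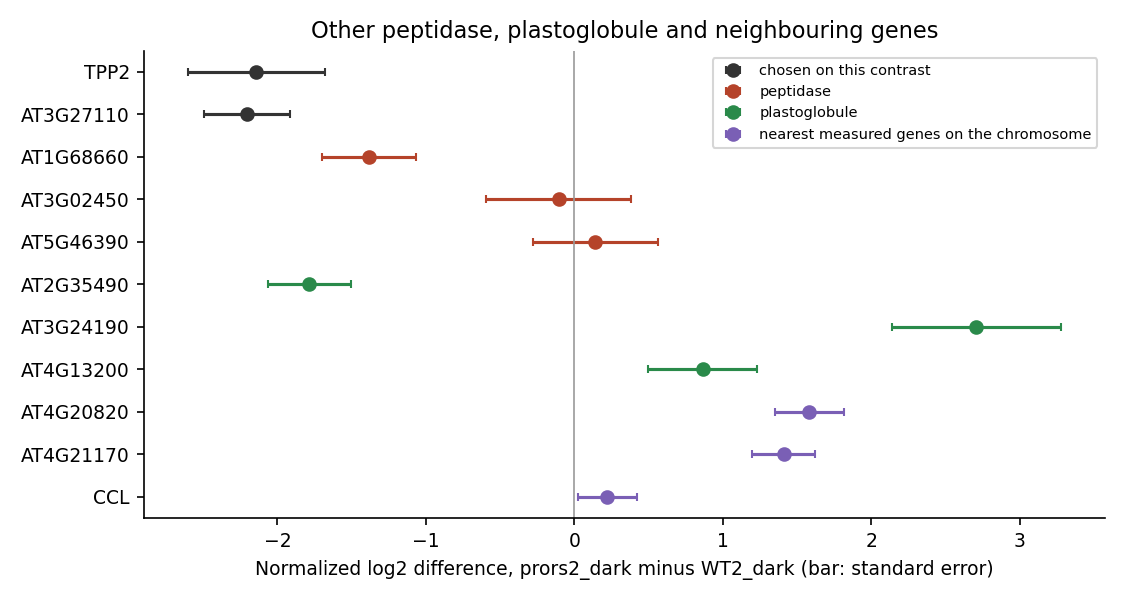
Normalized log2 difference (prors2_dark minus WT2_dark) with standard errors for TPP2 and AT3G27110, which were chosen on this contrast, and for the tested genes listed with peptidases, plastoglobule genes and nearest measured genes along the chromosome. AT1G68660 and AT2G35490 lie below 0 at -1.38 and -1.79, and AT3G24190 lies highest at 2.71.

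Both measured genes nearest to TPP2 along the chromosome rose, as did 31.5% of the 530 single-gene features tested. On one side of TPP2, AT4G20820, of the berberine bridge enzyme type and separated by 3 annotated genes, rose by 1.58 (limma, adjusted p = 3.6e-04), with intensities between 0.265 and 0.452 in prors2_dark and between 0 and 0.0431 in WT2_dark. On the other side AT4G21170, with 41 genes between, rose by 1.41 (limma, adjusted p = 2.4e-04). Both were brighter in the mutant as deposited, without overlap, as were 52.5% of the tested features. Beside AT3G27110, CCL, a gene related to the clock-regulated CCR genes and 62 genes away, had a difference of 0.22 (limma, adjusted p = 0.381) that turned to -1.41 with median centring (limma, adjusted p = 5.2e-06), and AT3G27180, with 6 genes between, was at 0 in all 6 prors2_dark and 5 of 6 WT2_dark samples and was not tested.

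With each group's own mean taken away, so that the contrast that chose them plays no part, the normalized values of TPP2 and AT3G27110 had a Pearson r of -0.39 over the 9 samples in which both were above 0. The single-gene features most like TPP2 in this respect, out of 368 above 0 in all samples, were AT1G71910 (r = 0.93), AT3G28460 (0.92), AT1G17160 (0.84) and AT4G27510 (0.83), over 9 samples. Those most like AT3G27110, out of 367, were CML30 (r = 0.95), AT2G03390 (0.95), AT1G18290 (0.93) and AT1G51350 (0.93), over 12 samples. Their differences between the groups ran from -0.35 for AT1G17160 to 1.60 for AT1G71910, against -2.14 for TPP2 and -2.21 for AT3G27110. These correlations are the highest of many, and the samples behind them share the sets of consecutive numbers and the array's overall brightness.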

How the data were processed

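Total RNA of 6 prors2_dark and 6 WT2_dark samples was measured by array, and groups and numbers were read from the titles. The deposited values are intensities on a linear scale. Neither the array type nor the steps by which the authors obtained these intensities are given in the labels. Values lie between 0 and 100, and no background level comes with them. Precision is limited by how many arrays there are. Of the 3439 probes, 692 carry 1 gene in the platform annotation, 690 of them matched to TAIR10.1, 870 carry several and the remaining 1877 have no entry.

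Zeros were treated as missing, the rest put on a log2 scale and quantile-normalized, and probes of 1 gene averaged (3438 features). A feature entered the test, which was 2-sided, with 3 or more nonzero values per group, using limma 3.58.1 in R 4.3.3 (lmFit and eBayes) and Benjamini-Hochberg adjustment over all 2684. Alternatives covered scaling, zeros, dim features, fit settings, blocks and left-out samples. TPP2, AT3G27110, the gene lists and the alternatives were chosen with earlier results of these data known. Named genes are both of these, the tested or probed genes of the peptidase, proteasome and plastoglobule lists, the nearest measured genes along the chromosome and the 4 features most like each within groups. AT1G67820, THIC and AT1G21350 were named after their values were seen. None of the 66 pairs of samples held the same values throughout. No sequence is printed.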

Additional observations from a re-analysis of the deposited data

Results flagged for a closer look

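In 22 groups of 4 to 6 normalized values examined, 2 had a sample far from the rest, where chance gives about 1 in 20. Neither is a reading of TPP2 or AT3G27110. WT2_dark sample 6 had a normalized log2 value of -4.70 for AT5G46390, against -2.80 to -2.01 in the rest of the wild type. The AT5G46390 difference was -0.24 without that sample (limma, adjusted p = 0.468) and 0.14 with it. WT2_dark sample 2 had -6.04 for AT3G24190, and the others lay between -3.28 and -2.51. The AT3G24190 rise was 2.13 without that sample and 2.71 with it.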

How the results depend on the processing

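TPP2 kept a difference below 0 in all alternatives that gave it a value except the deposited scale (0.57). It moved by more than the spread between samples with median centring (-1.21), with zeros kept (-1.25) and within samples 1 and 2 (-1.36) and 5 and 6 (-2.93), and it had no value among features above 0 in all samples, without the dimmest 25%, or within samples 3 and 4. AT3G27110 was below 0 in all 25 alternatives and moved as deposited (-0.30) and within samples 1 and 2 (-2.83). Both genes were chosen on these same samples, so a sign shared by the alternatives is a description. Leaving out 1 sample gave -2.50 to -1.96 for TPP2 and -2.37 to -2.08 for AT3G27110. Calls over all features numbered 1225, against 2013 as deposited, 548 with consecutive numbers averaged (at least 2 averaged values in each group) and 671 with them as a random block, and 1122 to 1195 without 1 sample. Calls over single-gene features numbered 257, against 402, 119 and 138 in the same 3 settings, and 238 to 251 without 1 sample. Of the 3 tested genes listed with peptidases 1 was called, as it was without any 1 sample. There were 2 calls as deposited, both higher, and 0 with consecutive numbers averaged or as a random block. Within samples 3 and 4 there were 2, both lower, one of them AT5G46390 (-1.0, limma, adjusted p = 0.0357). Within samples 5 and 6 there were 0.

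As deposited, the differences of AT1G68660 (0.39), AT3G02450 (2.39) and AT2G35490 (0.13) had the opposite sign. AT3G02450 was also above 0 with median centring (0.79), with the replicate block (0.071), within samples 3 and 4 (0.80), and without prors2_dark sample 5 (0.12) or 6 (0.14) or WT2_dark sample 2 (0.22), with a range of -0.32 to 0.22 without 1 sample. AT5G46390 was below 0 with zeros kept (-0.17), within samples 3 and 4 (-1.0), and without prors2_dark sample 2 (-4.9e-04) or WT2_dark sample 6 (-0.24), with 0.29 the highest without 1 sample. CCL was below 0 with median centring (-1.41) and within samples 3 and 4 (-0.26). Deviations of same-numbered samples of the groups correlated at r from 0.054 to 0.16, below the 0.54 to 0.84 of consecutive mutant samples. When compared with wild-type samples only, 4 of 6 mutant samples were closest to their own number. That is a weak hint from the data that numbers or sets are shared between the groups. The labels do not state a pairing and not every r of same-numbered samples was over 0.1, so the unblocked values are given first. With the number as a replicate block 1209 features and 260 single-gene features were called, as was 1 of the 3 genes listed with peptidases. The differences were then -1.80 for TPP2 and -2.21 for AT3G27110. The intensities come without a background level, so how far above background TPP2 lies is unknown.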
